A study of Mus musculus with 24 samples.

Results

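The genes described here encode the enzymes that break down the branched-chain amino acids leucine, isoleucine and valine, the carrier that brings these amino acids into mitochondria, and the propionate pathway that receives part of their carbon. They were chosen by name: 31 names were looked up in the gene name column of the deposited tables. Mut and Mmut are names of the same gene, which left 30 genes. Of these, 29 were listed in every table, under the name Mut for that gene, and Bcat1 was listed in none. The tables together listed 15741 genes, of which 14474 had a read count for all 24 libraries.

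In mitochondria the branched-chain amino acids are first transaminated to ketoacids, by BCAT2, and then decarboxylated by the branched-chain ketoacid dehydrogenase, a complex that a kinase (BCKDK) switches off and a phosphatase (PPM1K) switches on. Leucine carbon then runs through isovaleryl-CoA and methylcrotonyl-CoA to acetyl-CoA and acetoacetate, and isoleucine and valine carbon runs through enzymes of their own to acetyl-CoA and propionyl-CoA. Propionyl-CoA is carboxylated and rearranged to succinyl-CoA, the last step by a mutase that needs a cobalamin cofactor. Liver is known for low transaminase and high ketoacid dehydrogenase activity, and leucine is an essential amino acid, so its supply depends on the diet and on protein breakdown.

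Polyadenylated RNA from the livers of 24 mice was sequenced, in 8 groups of 3. Mice were wild type (WT) or carried a whole-body knockout of GCN2 (KO), a protein kinase encoded by Eif2ak4 that responds to uncharged transfer RNA. Their food was the control diet (Control) or lacked leucine (LeuD), and they were killed at circadian time 3 or 15 (CT03, CT15), the hours counted from subjective dawn. All had been housed alone on a 12-h light-dark cycle and adjusted to the control diet for 2 days. The LeuD mice then changed diet at dark onset, and from 24 h later all mice lived in darkness for 8 days. Because the knockout is in every tissue, a value from KO liver is not specific to loss of GCN2 in liver cells. The sources used here give no strain, sex, age or deleted part of Eif2ak4. The labels call the replicates biological and name no shared litter or batch, so p values measure the spread between these mice alone.

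Libraries held 34137121 to 44884200 reads in listed genes. Eif2ak4 reads, summed over the whole gene, did not separate the genotypes (287 to 349 normalized counts in 12 WT livers, 243 to 463 in 12 KO livers), which does not check the label, since the loss of an exon need not lower that sum. In RPM, which are reads scaled to a common library total, the 8 hepatocyte markers summed to 88129 to 146717 outside the KO LeuD groups and to 149072 to 189026 in them. Pancreas acinar transcripts (14 to 16 of 17 markers listed, by group) took 14353 RPM in KO LeuD CT03 replicate 1, 7648 RPM in KO LeuD CT15 replicate 3 and 4193 RPM in WT LeuD CT15 replicate 1, against 9.4 to 640.2 RPM in the other libraries. The share of mitochondrially encoded reads was 2.24% to 4.14% in KO LeuD and 4.23% to 6.31% elsewhere. The 6 erythroid markers summed to 78.2 to 275.5 RPM on LeuD and 212.2 to 461.7 RPM on Control. In whole liver, fewer cells of a type and less RNA per cell cannot be told apart. The part of these differences in the results below was not tested, beyond the values given with and without libraries.

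Levels below are normalized counts: reads divided by a size factor that puts all 24 libraries on 1 scale. Changes are differences of mean log2(normalized count + 1) with their standard error (SE), and a gene is called at an adjusted p under 0.05 from limma with Benjamini-Hochberg adjustment over all genes tested. A change is written as LeuD minus Control, KO minus WT or CT15 minus CT03.

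Per kilobase of exon, the levels of the 29 genes spanned from 62.3 normalized counts for Oxct1 to 5303 for Hsd17b10, as means over the 24 livers. Hsd17b10, the dehydrogenase of the isoleucine route, was followed by Acat1, the mitochondrial thiolase, at 5127 per kilobase, Pccb, a subunit of propionyl-CoA carboxylase, at 3623, and Aldh6a1, the methylmalonate semialdehyde dehydrogenase of the valine route, at 3031. Oxct1, the ketone body transferase that hepatocytes are known to lack, had 132 to 334 normalized counts in single livers. The catalytic subunits of the ketoacid dehydrogenase lay at 2114 (Bckdha), 2276 (Bckdhb), 1256 (Dbt) and 1722 (Dld) per kilobase, while the genes of their regulators lay at 135.1 (Bckdk) and 310 (Ppm1k). Bcat2 stood at 213.4 per kilobase, below all 4 catalytic subunits. Exon lengths came from GENCODE for GRCm38, another build than the authors', and the kit does not mark strand, so reads of genes that overlap or run antisense are not separated and the order is approximate.

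**Figure D1:**
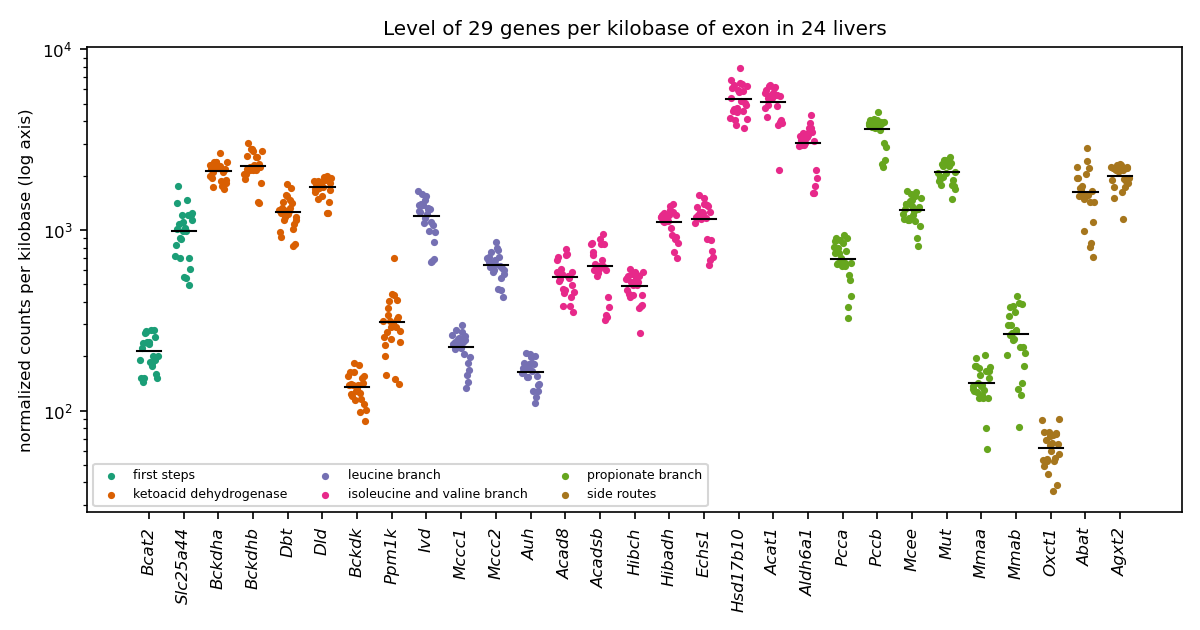
Normalized counts per kilobase of exon (log axis) for the 29 genes, grouped by role in colour; each point is 1 of 24 livers and each bar the mean. Hsd17b10 and Acat1 lie highest and Oxct1 lowest, and Mmab, Ppm1k and Abat spread widely among livers.

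By the median over the 29 genes, the KO LeuD livers stood lowest, apart from replicate 3 of KO LeuD CT03. Against the mean of the 6 WT Control livers, the median log2 difference of the 29 genes was -0.63 and -0.62 in replicates 1 and 2 of KO LeuD CT03 and -0.06 in replicate 3. It was -0.36, -0.36 and -0.20 in the KO LeuD CT15 livers. In the 18 livers of the other groups it lay between -0.14 and 0.20, and the same median over all genes lay between -0.0050 and 0.0146 in every library. Replicate 3 of KO LeuD CT03 thus stood apart from its mates for these genes. Its mitochondrially encoded share was 4.14%, against 2.24% and 2.86% in replicates 1 and 2. For the diet, genotype and diet by genotype comparisons of KO LeuD CT03, calls and changes below 0 are therefore given with and without this library. It was set apart by the values of these same genes, so larger changes and more calls without it follow in part from that choice. They are not independent support.

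**Figure D2:**
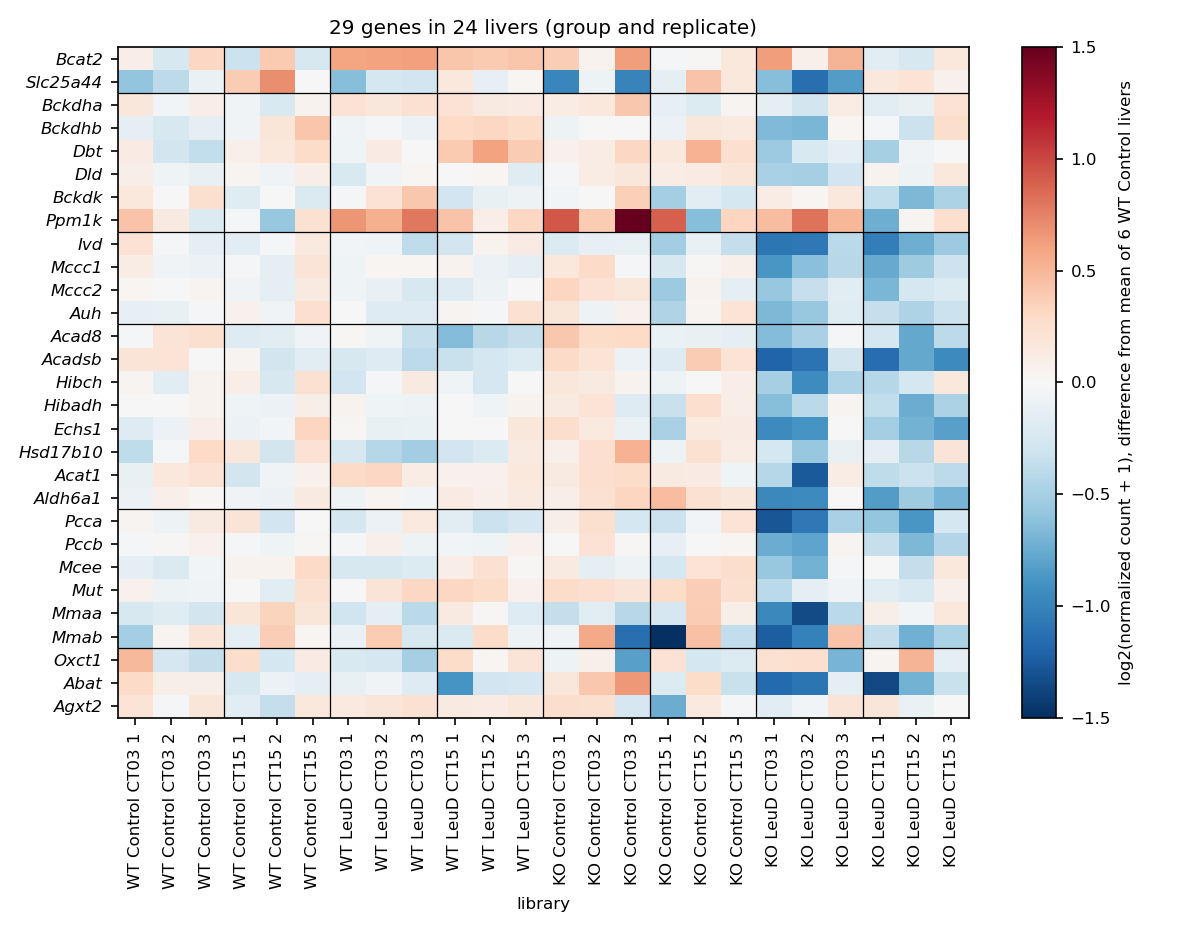
Difference of log2(normalized count + 1) from the mean of the 6 WT Control livers (colour; red higher, blue lower) for 29 genes (rows, ordered by role and separated by lines) in 24 livers (columns). Most rows of the leucine, isoleucine, valine and propionate branches are blue in KO LeuD CT03 replicates 1 and 2 and paler in replicate 3, where the median difference was -0.06.

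At CT03, 27 of the 29 genes had a lower mean in KO livers on LeuD than in KO livers on Control, with a median log2 change of -0.53 over the 29 genes and 0.0003 over all genes tested. In 16 of the 29, all 3 LeuD livers lay below all 3 Control livers, which held for 9.66% of all genes. None of the 29 was called by limma, as for 0% of all genes in this comparison, while 17 had an unadjusted p under 0.05 with a negative change (7.51% of all genes). The edgeR test called 0 (0% of all genes) and DESeq2 called 8 (3.51% of all genes). In 1 limma fit of all 24 libraries, which shares the spread over the 8 groups, 14 were called lower against 2.22% of all genes: Mccc1, Acadsb, Dld, Pcca, Acad8, Aldh6a1, Hibch, Abat, Mccc2, Ivd, Pccb, Mut, Auh and Acat1. The authors' deposited table has 8 of them lower at its own adjusted p under 0.05 (3.51% of all genes in either direction): Abat, Acad8, Acadsb, Dld, Hibch, Mccc1, Mccc2 and Pcca. For genes that spread more in KO LeuD CT03 than elsewhere, the fit of all 24 libraries understates that group's spread. The SD of Acat1 was 6355 there and 377 to 2366 in the other groups. For Mccc1 the SD of the counts was 274 there against 93.4 to 325, on the lowest mean of the 8 groups (1728). These are SDs of counts, while the fit works on log2 values, so they do not exempt Mccc1.

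Replicate 3, set apart by the values of these same genes, decided the calls in this comparison. Without it, limma called 16 of the 29, against 8.29% of all genes, and 27 of 29 changes were below 0 with a median of -0.69. Mccc1 (-0.89, limma adjusted p = 0.0267) and Hibch (-0.84, 0.035) were among the called genes. Without the acinar-rich replicate 1, 28 of 29 changes were below 0 with a median of -0.46 and 0 were called. Each of these fits has 2 LeuD livers.

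All 4 genes of the leucine branch lay lower in KO LeuD livers at CT03 without overlap, with changes of -0.78 to -0.53. Mccc1, which encodes the biotin-carrying subunit of methylcrotonyl-CoA carboxylase, had the lowest p of the 29. Its counts were 2980, 3254 and 2628 in the KO Control livers (2954 ± 314, SD, n = 3) and 1453, 1731 and 2000 in the KO LeuD livers (1728 ± 274), a log2 change of -0.78 ± 0.16 (limma adjusted p = 0.206). All 3 LeuD livers were below all 3 Control livers, replicate 3 being nearest to them. Ivd, the isovaleryl-CoA dehydrogenase, had 6741, 7182 and 7249 on Control and 3673, 3699 and 5876 on LeuD (-0.71 ± 0.20, limma adjusted p = 0.267). Here replicate 3 lay closer to the Control livers than to its mates. Ivd is the only member on chromosome 2, which also carries Eif2ak4, with 11 protein-coding genes between them in the RefSeq gene order of GRCm38.p6, and the part of this linkage in its KO values was not tested.

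In the isoleucine and valine branch, 8 of 8 changes were below 0 in KO livers at CT03, with a median of -0.74, and 6 of 8 genes showed no overlap. Hibch, the hydroxyisobutyryl-CoA hydrolase of the valine route, had 3545, 3466 and 3283 counts on Control and 2236, 1639 and 2296 on LeuD (3431 ± 134 against 2057 ± 363, n = 3 each, log2 change -0.76 ± 0.16, limma adjusted p = 0.209). Here replicate 3 was close to replicate 1, with replicate 2 lowest. Acadsb, the short branched-chain acyl-CoA dehydrogenase of the isoleucine route, had 6386, 6010 and 4922 on Control and 2266, 2419 and 4325 on LeuD (-1.0003 ± 0.26, limma adjusted p = 0.24). Acat1 had 21212, 22943 and 23266 on Control and 14305, 8061 and 20770 on LeuD. The LeuD livers of both genes lay below the Control livers, by a narrow gap in replicate 3. Aldh6a1 had 19439, 21133 and 22660 on Control and 9284, 9326 and 18007 on LeuD, a change of -0.86 ± 0.27. Echs1, the enoyl-CoA hydratase, overlapped between the diets, with 12450, 11492 and 9677 on Control and 5321, 5623 and 10358 on LeuD.

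The propionate branch lay lower too, with 6 of 6 changes below 0 and a median of -0.51. Pcca, the biotin-carrying subunit of propionyl-CoA carboxylase, had 4388, 4879 and 3436 counts on Control and 1697, 1952 and 2935 on LeuD, with no overlap (-0.98 ± 0.23, limma adjusted p = 0.231). Pccb, its partner subunit, had 10763, 12473 and 10889 on Control and 6423, 6213 and 11017 on LeuD. For Pccb the groups overlapped, because replicate 3 lay above 2 Control livers. Mut, the methylmalonyl-CoA mutase, was lower in all 3 LeuD livers (5649, 6752 and 7188 against 9055, 8888 and 8533). Mmaa and Mmab, which deliver and make the adenosylcobalamin cofactor of the mutase, had changes of -0.60 and -0.41 with overlapping groups.

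Among the 6 genes of the ketoacid dehydrogenase and its regulators, 6 changes were below 0 with a median of -0.40, and Bckdha, Dbt and Dld showed no overlap. Dld, the dihydrolipoamide dehydrogenase that this complex shares with pyruvate dehydrogenase, had 6340, 6985 and 7271 counts on Control and 4592, 4580 and 5275 on LeuD (-0.51 ± 0.13). Bckdk, the kinase, had 501, 514 and 659 on Control and 558, 526 and 576 on LeuD, a change of -0.0049. Thus the LeuD livers of KO mice lay within the Control range for the kinase gene, while the 4 catalytic subunits had changes of -0.51 to -0.32.

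The genes of the first steps and of the side routes did not share 1 direction. Bcat2 had a change of 0.05 and Slc25a44, the mitochondrial carrier of branched-chain amino acids, a change of -0.18. Abat, the transaminase of 4-aminobutyrate that also acts on a valine product, had the most negative change of the 29, with 15753, 18604 and 22110 counts on Control and 6247, 6578 and 12820 on LeuD (-1.21 ± 0.29, limma adjusted p = 0.231). All 3 LeuD livers were below all 3 Control livers. Agxt2, which acts on 3-aminoisobutyrate, had -0.09, and Oxct1 0.20.

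**Figure D3:**
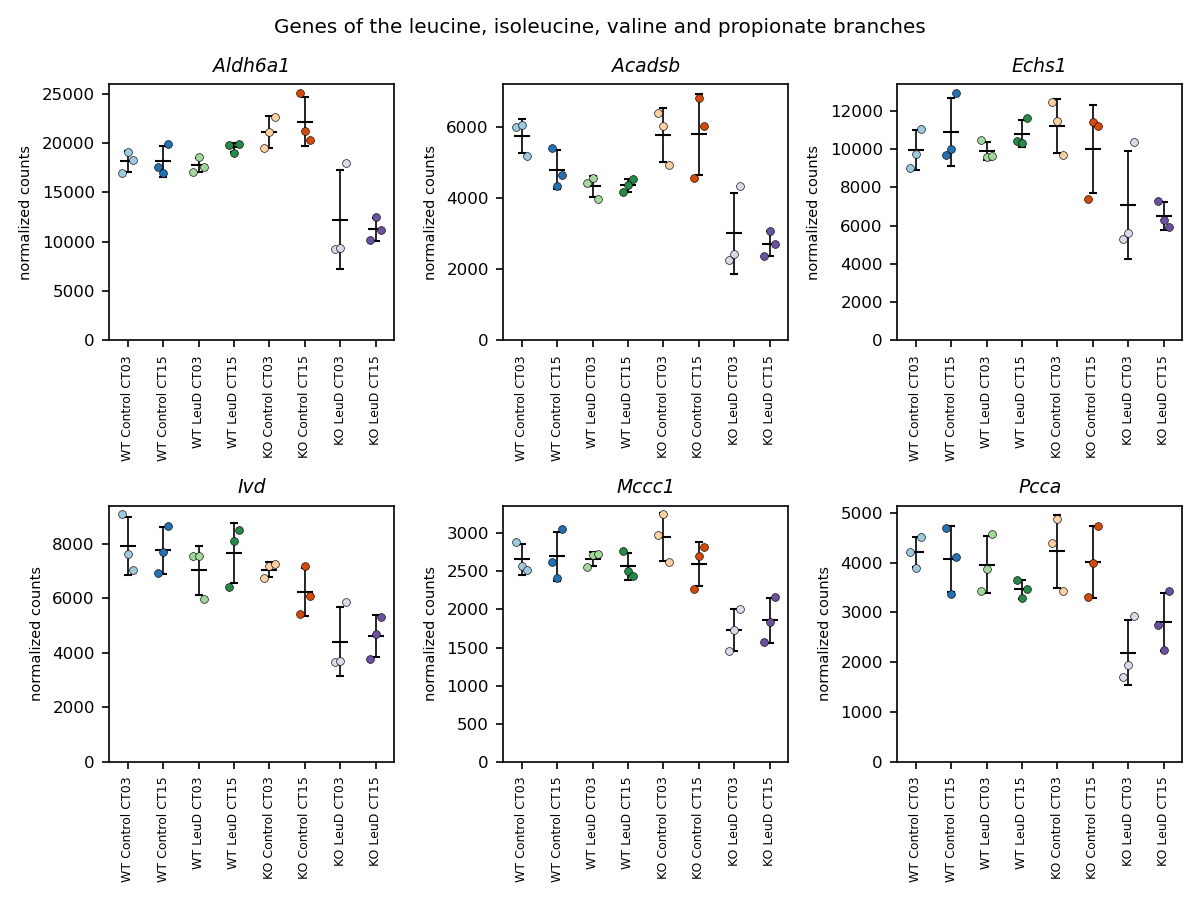
Normalized counts of 6 genes in each liver (points), with the mean and SD of the 3 livers per group (bars). The KO LeuD livers are the lowest for Aldh6a1, Acadsb and Echs1 at CT15, where 2370 to 3070 counts of Acadsb compare with 4164 to 4537 in WT LeuD, and 1 KO LeuD CT03 liver lies above its mates in each panel.

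At CT15 the same diet contrast in KO livers had 25 of 29 changes below 0, with a median of -0.31 over the 29 genes and -0.0062 over all genes. Groups did not overlap for 11 genes, all lower on LeuD, against 10.9% of all genes. The limma test called 0 of the 29 (0.0202% of all genes), 12 had an unadjusted p under 0.05 with a negative change (7.25% of all genes), edgeR called 0 and DESeq2 called 2 (4.72%). The fit of all 24 libraries called 6 lower (3.43% of all genes): Acadsb, Aldh6a1, Mccc1, Hibadh, Mut and Dbt. In the authors' deposited table Acadsb and Aldh6a1 were lower at an adjusted p under 0.05, where 4.72% of all genes were called.

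Aldh6a1 had the lowest p of the 29 at CT15. Its counts were 25020, 21195 and 20272 on Control (22162 ± 2518, SD, n = 3) and 10136, 12474 and 11170 on LeuD (11260 ± 1172), a log2 change of -0.98 ± 0.16 (limma adjusted p = 0.0766). Acadsb had 4559, 6803 and 6021 on Control and 2370, 3070 and 2704 on LeuD (5794 ± 1139 against 2715 ± 350, -1.09 ± 0.19, limma adjusted p = 0.0879). In both genes the LeuD livers lay far below the Control livers, the highest LeuD liver reaching 12474 against a lowest Control liver of 20272 for Aldh6a1. Without KO Control CT15 replicate 1, Acadsb was the 1 member called (-1.25, limma adjusted p = 0.019), against 1.37% of all genes. Without the acinar-rich replicate 3 of KO LeuD CT15, 25 of 29 changes were below 0 with a median of -0.38, and 0 were called.

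By branch, the changes at CT15 were below 0 for 8 of 8 genes of isoleucine and valine breakdown (median -0.49), 4 of 4 of leucine breakdown (-0.38), 5 of 6 of the propionate branch (-0.28) and 5 of 6 of the ketoacid dehydrogenase (-0.16). Hibadh, the hydroxyisobutyrate dehydrogenase of the valine route, had 9495, 14239 and 12796 counts on Control and 9258, 7126 and 8592 on LeuD. The groups did not overlap, though the highest LeuD liver, at 9258, was close to the lowest Control liver, at 9495. Ivd had 5440, 7203 and 6072 on Control and 3789, 4708 and 5333 on LeuD. Dbt, the transacylase core of the ketoacid dehydrogenase, had 4412, 5686 and 4696 on Control and 2791, 3806 and 3954 on LeuD (-0.50 ± 0.19).

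In WT livers the diet left the median of the 29 genes near 0, at -0.03 for CT03 and -0.02 for CT15, against -0.01 over all genes at both times. At CT03, 3 genes lay higher and 3 lower on LeuD without overlap (12.1% and 11.8% of all genes), and limma called none (2.24% of all genes). Of the 29, 2 had an unadjusted p under 0.05 with a positive and 2 with a negative change (9.19% and 8.58% of all genes). The edgeR test called 0 (2.07% of all genes) and DESeq2 called 3 (6.53%). Acadsb lay lower, with 5993, 6052 and 5189 counts on Control and 4429, 4561 and 3982 on LeuD (5745 ± 482 against 4324 ± 304, n = 3 each, -0.41 ± 0.10, limma adjusted p = 0.0747). Bcat2 lay higher, with 748, 593 and 870 on Control and 1055, 1069 and 1070 on LeuD (737 ± 139 against 1065 ± 8.05, 0.55 ± 0.14, limma adjusted p = 0.0848). Neither group pair overlapped. Ppm1k, the phosphatase, had 1891, 1545 and 1214 on Control and 2217, 2037 and 2428 on LeuD (0.54 ± 0.16, limma adjusted p = 0.119). Without WT Control CT03 replicate 1, the highest of its Control livers, Ppm1k was the 1 member called (0.70, limma adjusted p = 0.029), against 3.01% of all genes. The authors' deposited table calls these 3 genes (6.52% of all genes), Acadsb lower and Bcat2 and Ppm1k higher.

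At CT15 in WT livers, 2 genes lay higher and 3 lower on LeuD without overlap (9.51% and 9.69% of all genes), and limma called none (0.186%). Here 3 had an unadjusted p under 0.05 with a positive and 1 with a negative change (6.15% and 6.81% of all genes), and edgeR and DESeq2 called 0 (DESeq2 called 3.54% of all genes). Acad8, the isobutyryl-CoA dehydrogenase of the valine route, had 2161, 2223 and 2382 counts on Control and 1572, 1852 and 1929 on LeuD (2255 ± 114 against 1784 ± 188, n = 3 each, -0.34 ± 0.11, limma adjusted p = 0.254). Dbt had 4162, 4432 and 4809 on Control and 5206, 6013 and 5175 on LeuD (0.29 ± 0.11, limma adjusted p = 0.308). The Dbt groups did not overlap in either genotype at CT15, lying higher on LeuD in WT and lower on LeuD in KO. Bcat2 at CT15 had 559, 924 and 594 on Control and 934, 921 and 937 on LeuD (0.46 ± 0.19, limma adjusted p = 0.35), where the highest Control liver overlapped the LeuD range.

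**Figure D4:**
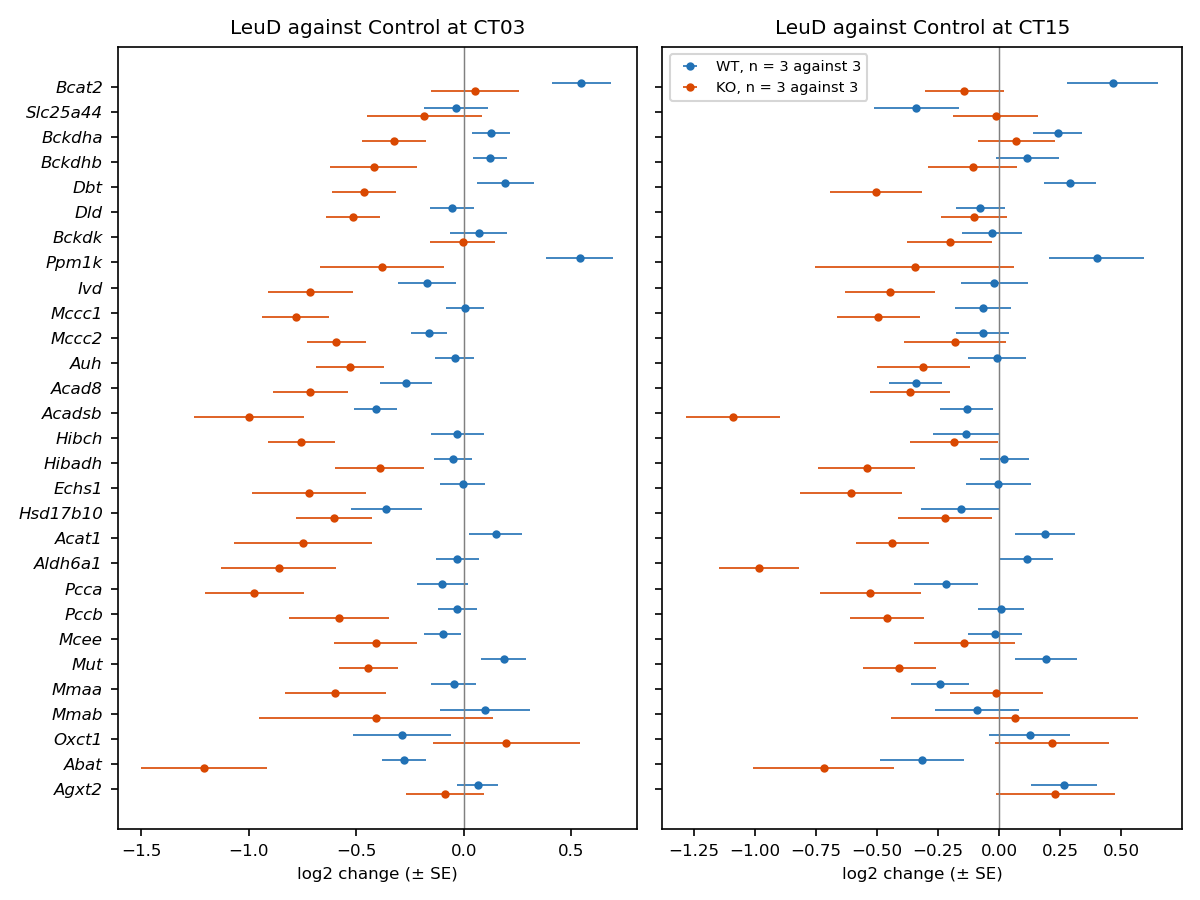
Log2 change (LeuD minus Control, ± SE) of each of the 29 genes at CT03 (left) and CT15 (right) in WT (blue) and KO (orange), 3 livers per group. At CT03, 27 of the 29 orange points lie below 0, from -1.21 for Abat to 0.20 for Oxct1, and the blue points lie between -0.41 and 0.55.

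The diet response of KO and WT livers was compared directly by an interaction over 12 libraries, KO change minus WT change. At CT03 the difference was below 0 for 28 of 29 genes, with a median of -0.54 against -0.0051 over all genes. The limma test called 0 of the 29 (0% of all genes), 15 had an unadjusted p under 0.05 with a negative difference (6.74% of all genes), edgeR called 0 and DESeq2 called 2 (1.2%). Mccc1 differed by -0.79 ± 0.18 (limma adjusted p = 0.25) and Mut by -0.63 ± 0.17 (limma adjusted p = 0.283). Leaving out KO LeuD CT03 replicate 3 gave 15 called genes against 7.21% of all genes, with 28 of 29 differences below 0 and a median of -0.74. Mccc1 (-0.90, limma adjusted p = 0.0136) and Mut (-0.71, 0.0314) were among them. Leaving out the acinar-rich replicate 1 gave 28 of 29 below 0, a median of -0.43 and 0 called.

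At CT15 the difference of the diet responses was below 0 for 25 of 29 genes, with a median of -0.29 against 0.0071 over all genes. None was called by limma (0.104% of all genes), 9 had an unadjusted p under 0.05 with a negative difference (5.34%), edgeR called 0 and DESeq2 called 3 (2.05%). Aldh6a1 differed by -1.09 ± 0.18 (limma adjusted p = 0.0581), and was called without KO LeuD CT15 replicate 2 (limma adjusted p = 0.0487, 0.124% of all genes called). For this gene the WT livers had 17512, 16996 and 19874 counts on Control and 19773, 19011 and 19890 on LeuD, so the WT livers lay close together on both diets. Acadsb differed by -0.95 ± 0.22 (limma adjusted p = 0.117). Both comparisons use the same KO LeuD livers as the KO diet contrast above, so they are not further evidence for it.

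Comparing the genotypes on LeuD at CT15, limma called 3 of the 29 genes lower in KO livers, against 0.656% of all genes called lower, and 0 higher. The KO livers here are the KO LeuD livers of the diet contrast, so lower values here are not further evidence for it. The 3 genes, Aldh6a1, Echs1 and Acadsb, act in the breakdown of isoleucine and valine. Aldh6a1 had 19773, 19011 and 19890 counts in WT (19558 ± 477, SD, n = 3) and 10136, 12474 and 11170 in KO (11260 ± 1172), a log2 change of -0.80 ± 0.13 (limma adjusted p = 0.0256). Echs1 had 10428, 10347 and 11607 in WT (10794 ± 706) and 7290, 6310 and 5906 in KO (6502 ± 712), a change of -0.73 ± 0.13 (limma adjusted p = 0.0345). Acadsb had 4164, 4363 and 4537 in WT (4355 ± 187) and 2370, 3070 and 2704 in KO (2715 ± 350), a change of -0.69 ± 0.13 (limma adjusted p = 0.0385). In each of them the 3 KO livers lay below the 3 WT livers.

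Over the 29 genes, 25 changes were below 0 in that comparison, with a median of -0.33 against 0.0096 over all genes, and 15 lay lower in KO without overlap against 11.6% of all genes. An unadjusted p under 0.05 with a negative change was found for 14 (8.22% of all genes). The edgeR test called 3 (1.67%), DESeq2 called 10 (7.23%), and the fit of all 24 libraries called 5 lower (1.44% of all genes). All 3 genes were also called without KO LeuD CT15 replicate 2, and Aldh6a1 and Echs1 without replicate 1. Without KO LeuD CT15 replicate 3 or WT LeuD CT15 replicate 1, the 2 acinar-rich libraries, or without WT LeuD CT15 replicate 2 or 3, the limma adjusted p of the 3 genes lay between 0.0867 and 0.151. Acadsb was not called without KO LeuD CT15 replicate 1 either (limma adjusted p = 0.0669). Without both acinar-rich libraries 0 were called, and the changes of Aldh6a1, Echs1 and Acadsb were -0.79, -0.69 and -0.72, with 25 of 29 genes below 0 and a median of -0.46. Scaling the libraries to their totals put all 29 below 0 (median -0.50, against -0.16 over all genes) and called 8 (1.93% of all genes).

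Ivd had 6433, 8106 and 8497 counts in WT and 3789, 4708 and 5333 in KO on LeuD at CT15 (-0.74 ± 0.17, limma adjusted p = 0.0627), with no overlap. Dbt had 5206, 6013 and 5175 in WT and 2791, 3806 and 3954 in KO (-0.65 ± 0.16, limma adjusted p = 0.0769). Bcat2 also lay lower in KO, with 934, 921 and 937 in WT and 623, 592 and 780 in KO (-0.50 ± 0.14, limma adjusted p = 0.109). The acinar-rich libraries, whose part was not tested, held its highest KO value (replicate 3) and 1 of the WT values (replicate 1). Dld, Mmaa, Slc25a44 and Acad8 were the 4 genes with changes above 0, of 0.09, 0.08, 0.12 and 0.0020.

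For the 3 called genes, the RefSeq promoters of build GRCm38.p6 are shown, since these genes lay lower together. Each window is the 250 bases before a start site, read 5′ to 3′ on the strand of the gene, and capitals mark a match to a searched motif. Aldh6a1 has 2 start sites, on the minus strand of chromosome 12 (chr12:84451025-84451274 and chr12:84448318-84448567). Echs1 is on the minus strand (chr7:140116422-140116671) and Acadsb on the plus strand (chr7:131410351-131410600) of chromosome 7.
Aldh6a1, start site 1: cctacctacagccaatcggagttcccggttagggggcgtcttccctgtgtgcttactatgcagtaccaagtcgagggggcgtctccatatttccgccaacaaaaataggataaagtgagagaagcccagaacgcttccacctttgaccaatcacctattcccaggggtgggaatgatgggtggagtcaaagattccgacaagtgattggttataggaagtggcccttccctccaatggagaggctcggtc
Aldh6a1, start site 2: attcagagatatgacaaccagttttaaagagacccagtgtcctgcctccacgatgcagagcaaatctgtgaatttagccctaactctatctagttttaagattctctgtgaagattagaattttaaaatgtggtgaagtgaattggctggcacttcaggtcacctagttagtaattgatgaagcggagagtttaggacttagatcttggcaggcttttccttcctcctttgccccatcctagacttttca
Echs1: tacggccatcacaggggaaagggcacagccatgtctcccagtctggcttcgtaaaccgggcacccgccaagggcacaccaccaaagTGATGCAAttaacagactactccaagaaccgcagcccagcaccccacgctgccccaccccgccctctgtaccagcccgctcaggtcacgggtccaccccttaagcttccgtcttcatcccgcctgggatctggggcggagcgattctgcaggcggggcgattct
Acadsb: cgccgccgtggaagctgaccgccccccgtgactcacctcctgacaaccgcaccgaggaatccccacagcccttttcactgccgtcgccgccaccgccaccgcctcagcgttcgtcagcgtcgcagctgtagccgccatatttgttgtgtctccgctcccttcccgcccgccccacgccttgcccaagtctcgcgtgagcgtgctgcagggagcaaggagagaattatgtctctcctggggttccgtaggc

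Of the 29 genes, 24 had 30 promoters in the RefSeq table. Each was searched on both strands, from 250 bases before to 50 after the start, for CACGTG (the E-box of CLOCK and BMAL1), TTANGTAA (the core bound by PAR bZIP factors), TGATGNAA (the core bound by ATF4 with C/EBP partners) and TGACGTCA (the cyclic AMP response element), with N for any base. TGATGNAA was found in Echs1 alone, as TGATGCAA at position -164 from the start site, and occurs in 3.97% of all 32851 promoters of the table. CACGTG was found in Mccc2 alone (7.15% of all promoters) and TTANGTAA in Mmaa alone (2.32%). TGACGTCA was found in none of the 30 and in 1.79% of all. A match is a description of the letters and not a bound site.

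At CT03 on LeuD, 27 of 29 genes had a lower mean in KO than in WT, with a median change of -0.37 against -0.0002 over all genes. These KO livers are also those of the KO diet contrast at CT03, so the counts are not further evidence for it. Groups did not overlap for 9 genes, all lower in KO (9.71% of all genes). The limma test called 0 of the 29 (0.0484% of all genes), and 14 had an unadjusted p under 0.05 with a negative change (6.96%). The edgeR test called 0 (0.0484% of all genes) and DESeq2 called 2 (3.41%). The fit of all 24 libraries called Mccc1 and Pcca lower (0.408% of all genes). Mccc1 had 2557, 2714 and 2722 counts in WT against 1453, 1731 and 2000 in KO (2664 ± 93.4 against 1728 ± 274, n = 3 each, -0.64 ± 0.14, limma adjusted p = 0.178). Pcca had 3436, 3869 and 4567 in WT against 1697, 1952 and 2935 in KO (-0.88 ± 0.21, limma adjusted p = 0.23). Both genes lay lower in every KO liver. Leaving out KO LeuD CT03 replicate 3 gave 17 called genes, against 13.4% of all genes, with 28 of 29 below 0 and a median of -0.49, among them Mccc1 (-0.75, limma adjusted p = 0.00973) and Pcca (-1.11, 0.00628). Without the acinar-rich replicate 1, 27 of 29 were below 0 with a median of -0.31, and 0 were called.

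On Control at CT03, 20 of 29 genes had a higher mean in KO than in WT, with a median change of 0.14 against -0.0050 over all genes. In 6 genes (Aldh6a1, Mccc2, Mut, Acad8, Bckdhb and Hibch) all KO livers lay above all WT livers, against 7.69% of all genes, and in 0 genes below. None was called by limma (0.0136% of all genes), and 2 had an unadjusted p under 0.05 with a positive change (4.34%). The edgeR and DESeq2 tests called 0, against 0.00681% and 0.649% of all genes. Mut had 7814, 7074 and 7219 counts in WT and 9055, 8888 and 8533 in KO (7369 ± 392 against 8825 ± 267, n = 3 each, 0.26 ± 0.10, limma adjusted p = 0.589). Ppm1k had 1891, 1545 and 1214 in WT and 2674, 1830 and 4228 in KO (0.84 ± 0.30, limma adjusted p = 0.576), where a KO value of 4228 stood far above the others. Scaled to library totals, 17 changes were above 0 with a median of 0.03, against -0.11 over all genes.

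At CT15 on Control, 12 changes were above 0 and 17 below, with a median of -0.02 against -0.0039 over all genes. In 3 genes (Dld, Aldh6a1 and Mut) all KO livers lay above all WT livers, against 6.65% of all genes, and in 0 below. The limma test called 0 of the 29 (0.0798% of all genes), 0 had an unadjusted p under 0.05, and edgeR and DESeq2 called 0 (DESeq2 called 0.321% of all genes). Ivd had 6947, 7696 and 8659 counts in WT and 5440, 7203 and 6072 in KO (7767 ± 858 against 6239 ± 893, n = 3 each, -0.32 ± 0.15, limma adjusted p = 0.791), with overlap. Mut had 7446, 6726 and 8780 in WT and 9032, 9633 and 8862 in KO (0.27 ± 0.14, limma adjusted p = 0.791). All KO livers thus lay above all WT livers for Mut on Control at both times. On LeuD its mean was lower in KO, without overlap at CT03 (-0.37) and with overlap at CT15 (-0.32).

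By time of day, limma called Slc25a44, Dbt and Bckdhb, each in 1 condition and each higher at CT15. Slc25a44 had a higher mean at CT15 than at CT03 in all 4 conditions and was called in KO LeuD livers, where it had 2497, 1767 and 2170 counts at CT03 (2145 ± 366, SD, n = 3) and 4318, 4471 and 4055 at CT15 (4281 ± 210). Its log2 change there was 1.01 ± 0.16 (limma adjusted p = 0.035), the 1 called gene of the 29 against 0.644% of all genes called higher. In this comparison 3 genes had an unadjusted p under 0.05 with a positive and 3 with a negative change (8.9% and 7.34% of all genes), edgeR called 1 (0.825%) and DESeq2 called 3 (5.69%). The CT15 livers all lay above the CT03 livers. Scaled to library totals the change was 0.80 and was not called (limma adjusted p = 0.0767), in a comparison where that scaling moved the median of all genes by -0.20. The call was also lost without KO LeuD CT03 replicate 1 or 2 or any 1 of the 3 CT15 livers (changes of 0.87 to 1.12, limma adjusted p 0.0561 to 0.149), and without both acinar-rich libraries (1.16, limma adjusted p = 0.223).

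In the other conditions Slc25a44 had a change of 0.72 ± 0.19 in WT Control (2568, 2965 and 3622 at CT03, 5055, 6279 and 3881 at CT15, limma adjusted p = 0.12). It stood at 1967, 3665 and 1932 at CT03 and 3526, 5230 and 4321 at CT15 in KO Control (0.83 ± 0.28, limma adjusted p = 0.314). In WT LeuD it had 2488, 3241 and 3176 at CT03 and 4330, 3555 and 3951 at CT15 (0.42 ± 0.13, limma adjusted p = 0.0816). The groups overlapped in KO Control alone.

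In WT LeuD livers, limma called 2 of the 29 genes higher at CT15 (4.32% of all genes called higher), both subunits of the ketoacid dehydrogenase. Dbt had 3798, 4318 and 3971 counts at CT03 (4029 ± 265, SD, n = 3) and 5206, 6013 and 5175 at CT15 (5465 ± 475), a change of 0.44 ± 0.10 (limma adjusted p = 0.0306). Bckdhb, the beta subunit of its decarboxylase, had 3958, 4022 and 3861 at CT03 (3947 ± 81.5) and 5054, 5083 and 4959 at CT15 (5032 ± 65.1), a change of 0.35 ± 0.08 (limma adjusted p = 0.0308). Both were separated without overlap, as were 6 of the 29 genes in that direction (15.2% of all genes) and 5 in the other (16.3%). Leaving out any 1 of the 6 livers left Bckdhb uncalled (limma adjusted p 0.0598 to 0.111), and Dbt was uncalled without any of the CT03 livers or without WT LeuD CT15 replicate 2 (0.0733 to 0.0992). Without the acinar-rich WT LeuD CT15 replicate 1, Dbt was the 1 called gene of the 29, against 6.54% of all genes. Of the 29, 5 had an unadjusted p under 0.05 with a positive and 4 with a negative change (12.1% and 13.2% of all genes), edgeR called 3 (9.28%) and DESeq2 called 5 (13.8%).

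In WT Control, limma called 0 of the 29 for time (1.42% of all genes). An unadjusted p under 0.05 was found for 5 with a positive and 2 with a negative change (8.71% and 8.42%). The edgeR test called 0 (1.18% of all genes) and DESeq2 called 2 (6.17%). Mmaa had 791, 827 and 775 counts at CT03 and 1058, 1184 and 1061 at CT15 (797 ± 26.5 against 1101 ± 72, n = 3 each, 0.46 ± 0.09, limma adjusted p = 0.0663), with no overlap. In KO LeuD its values were 480, 367 and 705 at CT03 and 993, 909 and 1047 at CT15 (0.97 ± 0.23, limma adjusted p = 0.112), and it was called without KO LeuD CT03 replicate 3 (1.22, limma adjusted p = 0.0185), where 4.06% of all genes were called. The mean of Mmaa was higher at CT15 in all 4 conditions.

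In KO Control, limma again called 0 for time (0.0407% of all genes). An unadjusted p under 0.05 was found for 1 gene with a positive and 4 with a negative change (5.7% and 6.63%). The edgeR and DESeq2 tests called 0, against 0.0339% and 2.43% of all genes. Acad8 had 3264, 2996 and 3033 counts at CT03 and 2302, 2297 and 2248 at CT15 (3098 ± 145 against 2283 ± 29.7, n = 3 each, -0.45 ± 0.11, limma adjusted p = 0.218). The groups did not overlap, as for 5 genes in that direction (9.98% of all genes). In the fit of all 24 libraries Slc25a44 was the 1 member called (limma adjusted p = 0.037), against 1.81% of all genes called higher.

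The regulators of the ketoacid dehydrogenase had lower means at CT15 in all 4 conditions. Bckdk had changes of -0.26, -0.42, -0.36 and -0.61 in WT Control, KO Control, WT LeuD and KO LeuD, with limma adjusted p of 0.313, 0.392, 0.132 and 0.12. In KO LeuD its counts were 558, 526 and 576 at CT03 and 400, 323 and 371 at CT15, with no overlap. Ppm1k had changes of -0.24, -0.78, -0.38 and -0.74 in the same order, with limma adjusted p of 0.642, 0.519, 0.0739 and 0.217. The genes of the kinase and the phosphatase, which act against each other, thus had the same sign of change by time. Neither was called by limma in the fit of any pair of groups. The fit of all 24 libraries called Bckdk in KO LeuD (limma adjusted p = 0.00928), with Slc25a44, Mmaa and Dld higher, against 8.12% of all genes in either direction, and it called 0 of the 29 in WT LeuD (4.97% of all genes). In the authors' deposited tables Bckdk was lower at CT15 in KO LeuD and Ppm1k in WT LeuD at an adjusted p under 0.05, where 5.68% and 13.7% of all genes were called.

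**Figure D5:**
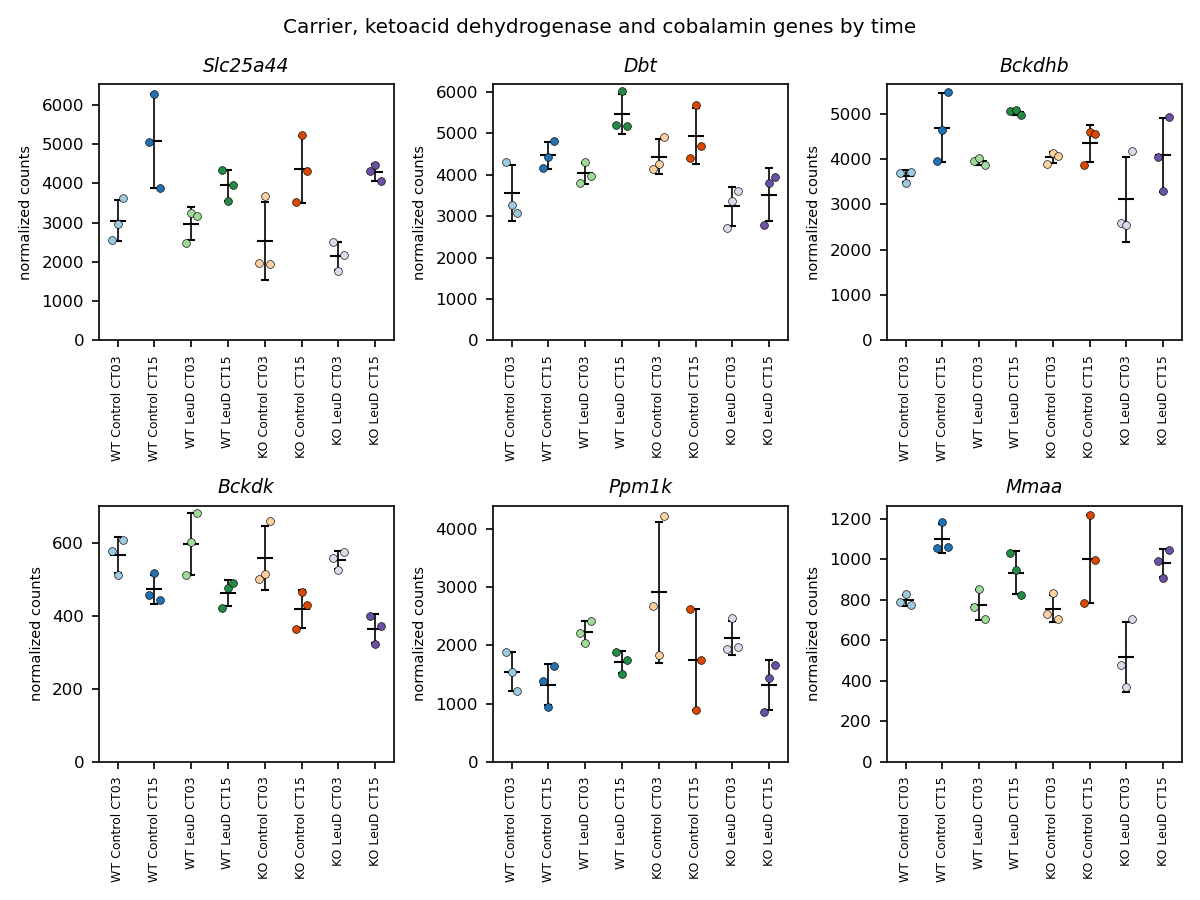
Normalized counts of 6 genes in each liver (points), with the mean and SD of the 3 livers per group (bars), at CT03 and CT15 in each condition. Slc25a44 means are higher at CT15 in all 4 conditions, by 0.42 to 1.01 on the log2 scale, and Bckdk and Ppm1k means are lower at CT15.

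Whether the time changes differed between conditions was tested by 4 interactions, and limma called 0 of the 29 in each. Calls among all genes were 0.00691% for time by diet in WT, 0% for time by diet in KO, 0.0276% for time by genotype on Control and 0.0207% for time by genotype on LeuD. Members with an unadjusted p under 0.05 numbered 0, 2 (3.69% of all genes), 0 and 3 (5.64%) in that order, all positive, and edgeR and DESeq2 called 0 in each (DESeq2 called 0.498%, 0.312%, 0.0692% and 0.609% of all genes). The lowest p were for Acadsb (0.27 ± 0.14, limma adjusted p = 0.816) and Oxct1 (0.41 ± 0.30, 0.884) for time by diet in WT. They were for Dld (0.42 ± 0.17, limma adjusted p = 0.757) and Hibch (0.57 ± 0.24, 0.757) for time by diet in KO. On Control, Mccc2 (-0.40 ± 0.20, limma adjusted p = 0.982) and Bckdhb (-0.26 ± 0.17, 0.984) had the lowest p for time by genotype. On LeuD these were Slc25a44 (0.59 ± 0.21, limma adjusted p = 0.443) and Dld (0.44 ± 0.17, 0.45). The call of Slc25a44 in KO LeuD alone is therefore not shown to differ from the other conditions.

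A list of 35 further genes of neighbouring steps (ketone body synthesis, biotin and lipoate attachment, cobalamin handling, succinyl-CoA synthesis, pyrimidine breakdown, amino acid transport and fatty acid oxidation) was followed beside the 29, and all 35 were listed. In KO livers at CT03, 27 of the 35 had a change below 0 with diet, with a median of -0.40 (0.0003 over all genes). The fit of all 24 libraries called 9 lower (2.22% of all genes), while the limma test of the pair called 0 (0% of all genes). For the genotype on LeuD at CT15, 21 of 35 were below 0 with a median of -0.07 (0.0096 over all genes). The limma test called 1 lower (0.656% of all genes), Upb1, the ureidopropionase of pyrimidine breakdown. Upb1 had 12367, 13252 and 11791 counts in WT and 7117, 7414 and 5768 in KO (-0.89 ± 0.14, limma adjusted p = 0.0226), with no overlap.

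Some of the 35 were called by limma in the contrasts of time or diet. In WT Control, 1 of the 35 was called higher at CT15, against 0.869% of all genes. Acss3, a mitochondrial acyl-CoA synthetase for short chains, had 364, 416 and 499 counts at CT03 and 815, 760 and 799 at CT15 (0.90 ± 0.13, limma adjusted p = 0.0301). In WT LeuD, 3 of the 35 were called higher at CT15, against 4.32% of all genes. They were the lysosomal cobalamin exporter Abcd4 (0.55 ± 0.14, limma adjusted p = 0.0423) and the amino acid transporters Slc43a1 (1.21 ± 0.27, 0.0301) and Slc7a5 (0.52 ± 0.13, 0.0409). With diet in WT at CT03, 1 of the 35 was called higher, against 1.31% of all genes. Btd, the biotinidase that recycles biotin, rose from 2206, 2416 and 2312 counts to 3101, 3096 and 3203 (0.44 ± 0.08, limma adjusted p = 0.0333). The biotin-dependent carboxylase genes Mccc1 and Pcca had changes of 0.0040 and -0.10 in the same comparison, and neither was called.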

How the data were processed

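Liver RNA of 24 mice was measured in 10 deposited tables, each comparing 2 groups. The submitters' processing notes name DESeq2, featureCounts, Subread 1.5.2, STAR 2.5.2b, Trimmomatic 0.36 and build GRCm39; the sources used here give neither settings nor annotation. Every table holds the authors' log2 fold change, p-value and adjusted p, per the file headers. Its 6 library columns were deposited as a signal, gene counts over a size factor set for that table, which follows from their values. All (100%) gave whole reads within 0.01. Of the columns, 36 repeated a library already met in another table, and 0 reads differed in them. The reads were put on 1 scale with median-ratio size factors over 24 libraries, which moved no member's log2 change by more than 0.0066. Replicate number 1, 2 or 3 came from the labels.

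Within each table, limma 3.58.1 (trend) was run on log2(normalized count + 1), and interactions and the genotype on LeuD were fitted on the common scale. Alternatives were edgeR 4.0.16 and DESeq2 1.42.0 on the recovered reads, other filters, pseudocounts and scalings, a replicate block, a fit of all libraries and fits without single libraries. The fits were also run on simulated counts, drawn with the same spread in every group. That run does not cover groups that differ in spread, as some do here. Members, lists and tests were chosen with earlier results of these data known. Members were described in full where called, or otherwise for the 2 lowest p, along with the most abundant and most variable member of each role group. A result for 1 gene of the further list is not reported here.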

Additional observations from a re-analysis of the deposited data

How the results depend on the processing

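No named result of the 36 changed direction in 583 refits: 503 kept their side of the threshold, 43 lost a call and 37 gained one. The 36 were named for a call or a low p in these same data, so a kept direction was likely beforehand. Only 6 of them were called, so a kept side often means a result that stayed uncalled. The 43 lost calls fell on these 6. The calls themselves depended on the method. With DESeq2 on the recovered reads, the members called numbered 2 for time in WT Control, 5 in WT LeuD and 3 in KO LeuD, 3 for diet in WT at CT03, 8 in KO at CT03 and 2 in KO at CT15, 2 for genotype on LeuD at CT03 and 10 at CT15, and 2 and 3 for diet by genotype at CT03 and CT15. The authors' adjusted p gave 2, 5, 3, 3, 8 and 2 for the first 6 of these. The fit of all 24 libraries gave 1 for time in KO Control, 0 in WT LeuD and 4 in KO LeuD, 14 for diet in KO at CT03 and 6 at CT15, and 2 and 5 for genotype on LeuD. Without acinar-rich libraries 1 was called for time in WT LeuD (6.54% of all genes), 0 for time in KO LeuD (0.0603%) and 0 for genotype on LeuD at CT15. Scaled to library totals these last were 0 and 8 (0.838% and 1.93% of all genes).

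Leaving out 1 library gave 0 to 1 calls for time in WT LeuD, 0 to 2 in KO LeuD, 0 to 1 for diet in WT at CT03, 0 to 16 in KO at CT03, 0 to 1 in KO at CT15, 0 to 17 and 0 to 3 for genotype on LeuD, and 0 to 15 and 0 to 1 for diet by genotype. The fits that called 16, 17 and 15 called 8.29%, 13.4% and 7.21% of all genes. The fit with 2 calls for time in KO LeuD called 4.06%, and those for time in WT LeuD 3.78% to 7.93%. The single calls for diet in WT at CT03, diet in KO at CT15 and diet by genotype at CT15 came beside 3.01%, 1.37% and 0.124%. With the replicate number as a block, 0 were called for time in WT LeuD, time in KO LeuD and genotype on LeuD at CT15. Numbers did not pair the livers: in 0 of 12 comparisons were all same-number correlations above 0.1 (range -0.502 to 0.507), and in 0 did every liver correlate best with its own number. The cause of these differences was not tested. With 3 livers a group, and 2 in a group that lost a library, their number limits the precision. Counts of members below 0, also without doubted libraries, were added after seeing the data.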
